A study of Homo sapiens with 4 samples.

Results

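Peaks assigned to microRNA genes were taken from the FOXK2 ChIP-seq of OVCAR5, an ovarian cancer cell line of high grade serous type derived from ascites. They are the peaks whose assigned gene name begins with MIR or MIRLET followed by a digit and does not end in HG, the suffix of microRNA host genes. The rule found 504 of 12471 peaks in replicate 1 (4.04%, 95% Wilson interval 3.71 to 4.40) and 1196 of 27281 peaks (4.38%) in replicate 2. The assigned gene is the one whose transcription start site (TSS) lies nearest to the peak centre, at any distance. The 504 peaks named 338 microRNA genes and the 1196 peaks named 610, of which 299 genes were named in both replicates. The cells were kept in RPMI medium, crosslinked with paraformaldehyde and precipitated with an antibody to FOXK2, in duplicate and under a single condition with no treatment or knockdown. Chromatin input and RNA measurements were not analysed here, so the data describe where FOXK2 signal lay and not how much of any microRNA was made.

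FOXK2 is a transcription factor of the forkhead family, whose members bind DNA through a winged-helix domain. MicroRNAs are short RNAs that pair with messenger RNAs, mainly through a few bases near their 5′ end called the seed, and lower the output of those messenger RNAs. They are cut from long primary transcripts, made mostly by RNA polymerase II, first by Drosha with DGCR8 into a hairpin and then by Dicer into the mature strand. Many hairpins lie in introns of protein-coding or long non-coding host genes and share the host's promoter. The annotation used for these peaks lists the hairpin alone, so the "TSS" of a microRNA gene is the 5′ end of its hairpin and usually not the place where transcription begins. The deposited distances matched the hairpin 5′ end in GENCODE release 44 to within 5 bp for 493 of the 504 peaks and 1172 of the 1196 peaks.

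The forkhead heptamer TGTTTAC was searched on both strands within 100 bp of each peak centre. The following stretches of hg38 surround such matches in peak pairs that overlapped between the replicates. They are shown because 9 of the 10 highest-ranked pairs held a match in both peaks and because most bases outside the heptamer differed from site to site. A match in both peaks was held by 23 of the 50 highest-ranked pairs, by 37.9% of all microRNA pairs and by 33.4% of all overlapping pairs. The base after the heptamer was A or T at every site shown here. Over all matches in microRNA peaks it was A or T for 77.7% in replicate 1 and 77.6% in replicate 2, beside 75.1% and 76.7% in all peaks. The stretches at MIR29B1 and MIRLET7I come from lower-ranked pairs (58 and 59 in order) of well-known microRNA genes described below. Each reads 5′ to 3′ on the strand that carries the match, with 20 bases to each side and the heptamer in capitals.
MIR5006 first site, chr13:41648412-41648458, minus strand: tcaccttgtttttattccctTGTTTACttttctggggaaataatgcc
MIR5006 other site, chr13:41648525-41648571, minus strand: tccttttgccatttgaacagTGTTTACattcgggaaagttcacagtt
MIR6730 site, chr1:12550060-12550106, plus strand: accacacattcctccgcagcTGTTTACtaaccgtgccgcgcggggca
MIR2909 site, chr17:37067853-37067899, plus strand: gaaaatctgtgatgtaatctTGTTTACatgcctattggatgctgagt
MIR4668 site, chr9:112030131-112030177, plus strand: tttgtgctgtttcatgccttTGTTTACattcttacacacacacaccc
MIR4756 site, chr20:54067791-54067837, minus strand: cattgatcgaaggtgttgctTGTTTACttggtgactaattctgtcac
MIR29B1 site, chr7:130894436-130894482, plus strand: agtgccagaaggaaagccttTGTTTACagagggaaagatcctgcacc
MIRLET7I site, chr12:62760941-62760987, plus strand: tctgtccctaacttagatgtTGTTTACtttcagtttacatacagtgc

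The remaining pair of the 10, without a match, was at MIR1538 and lay on the NFAT5 promoter. It is printed in full beside the MIR5006 peak, because these highly ranked peaks differ in base content and only the MIR5006 peak carries the heptamer (capitals, read here as its reverse complement GTAAACA). Both are the replicate 1 peaks, on the plus strand of hg38.
MIR5006 peak, chr13:41648366-41648576: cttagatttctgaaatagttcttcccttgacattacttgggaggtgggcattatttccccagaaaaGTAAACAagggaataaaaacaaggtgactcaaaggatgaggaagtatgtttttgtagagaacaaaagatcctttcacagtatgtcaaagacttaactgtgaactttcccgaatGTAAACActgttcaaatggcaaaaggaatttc
MIR1538 peak, chr16:69565746-69565956: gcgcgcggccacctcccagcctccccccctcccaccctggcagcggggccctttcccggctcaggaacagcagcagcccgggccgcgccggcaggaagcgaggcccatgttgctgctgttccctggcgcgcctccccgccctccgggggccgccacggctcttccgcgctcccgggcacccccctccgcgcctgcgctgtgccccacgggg
The G and C content was 36.8% in the MIR5006 peak and 78.1% in the MIR1538 peak.

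Overlap between the replicates was close to that of the whole list in replicate 1 and somewhat below it in replicate 2. Of the 504 peaks in replicate 1, 369 (73.2%, 69.2 to 76.9) were overlapped by a replicate 2 peak, beside 74.9% of all replicate 1 peaks. Of the 1196 peaks in replicate 2, 370 (30.9%, 28.4 to 33.6) were overlapped by a replicate 1 peak, beside 34.2% of all replicate 2 peaks. The interval of the microRNA peaks held the share of the list in replicate 1 and fell short of it in replicate 2. Away from gene starts the shares were 73.9% of microRNA peaks and 73.4% of all peaks in replicate 1, and 31.2% and 31.6% in replicate 2. All 369 pairs carried the same microRNA name in both replicates and came from 261 genes, and the median gap between paired centres was 27 bp. Since the name follows from the position, agreement of names adds nothing to the overlap.

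Peak height was ranked within each list, because the score is scaled to each library. The scores of the microRNA peaks ran from 3.4 through a median of 5.66 to 39.6 in replicate 1 and from 3.42 through 6.84 to 81.6 in replicate 2. Neither list's highest peaks were among them, as the scores of all peaks reached 188 and 388. The median score percentile was 45.8 in replicate 1, beside 49.1 for all its peaks, and 45.3 in replicate 2, beside 50 for all its peaks. Away from gene starts the medians of microRNA peaks and all peaks were equal, at 45.8 in replicate 1 and 45.3 in replicate 2. Within the 369 pairs the percentiles of the replicates ran together with a Spearman's rho of 0.813 across peaks (0.852 across all 9343 overlapping pairs of the lists), given as a description since peaks of a library are not independent replicates. The percentile was higher in replicate 2 for 321 of the 369 pairs (87%), beside 89.4% of all 9343 pairs. The replicate 2 list is the longer and its microRNA peaks without a partner stand low. Percentiles of shared peaks are therefore not on a common scale, and no difference in height was read from this. The focus ratio, the fraction of a peak's tags on the expected side of its centre, had a median of 0.759 and 0.763 in the microRNA peaks and of 0.758 and 0.755 over all peaks. A total of 45 pairs (12.2%) stood in the highest 10% of both lists, beside 13.2% of all pairs, and 68 (18.4%) in the lower 50% of both, beside 15.8%.

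**Figure D1:**
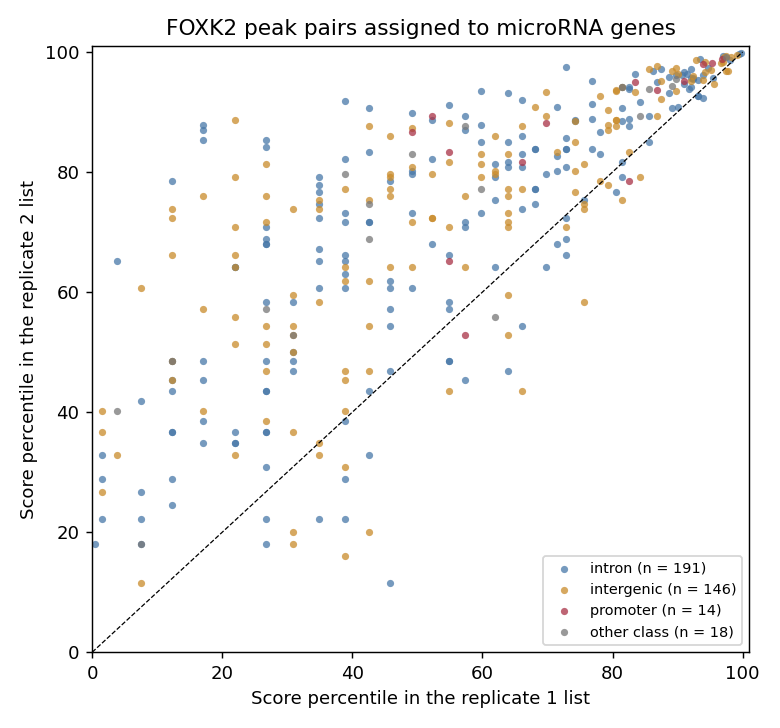
Score percentile of each of the 369 peak pairs assigned to microRNA genes, in the replicate 1 list (horizontal axis) and the replicate 2 list (vertical axis), coloured by the class of the replicate 1 peak. Most points (321 of 369) lie above the dashed line of equal percentile, as do 89.4% of all overlapping pairs of these lists of unequal length, and the 14 promoter pairs are spread from the middle to the top of the lists.

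MicroRNA peaks that overlapped between the replicates stood higher than those that did not. No matching medians of all peaks are given, so this describes the microRNA peaks alone. The median percentile was 57.3 for overlapped and 26.7 for other microRNA peaks in replicate 1, and 77.9 and 33.8 in replicate 2. Of the 338 genes in replicate 1, 239 (70.7%) had a single peak, as did 340 of the 610 genes (55.7%) in replicate 2. The genes named in replicate 1 alone numbered 39 and those named in replicate 2 alone 311. No matching counts or single-peak shares over all assigned genes are given. The lists differ in length, and nothing about microRNA genes was read from these values. Measured against the 1850 microRNA genes of GENCODE on named chromosomes, 298 (16.1%) had an assigned peak in both replicates.

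Most of the peaks lay far from the hairpin that names them. The median distance to the hairpin start was 27889 bp in replicate 1 and 34058 bp in replicate 2, beside 16140 and 20161 bp to the assigned TSS over all peaks. Away from gene starts the medians were 29798 beside 31747 bp in replicate 1 and 36059 beside 33710 bp in replicate 2. Within 10 kb lay 146 of 504 peaks (29.0%, 25.2 to 33.1) in replicate 1, beside 42.8% of all peaks, and 280 of 1196 (23.4%) in replicate 2, beside 37.9%. Away from gene starts the shares were 26.7% (22.9 to 30.9) beside 23.3% and 21.4% beside 21.3%. Only 20 (3.97%, 2.58 to 6.05) and 36 (3.01%) microRNA peaks were annotated as promoter, beside 21.7% and 18% of all peaks. The assignment itself sets much of this difference, since a peak at the promoter of another gene is given to that gene, and nothing about FOXK2 was read from it.

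Introns and intergenic sequence held nearly all of the rest. Introns held 254 microRNA peaks (50.4%, 46.0 to 54.7) in replicate 1, beside 39% of all peaks, and 605 (50.6%) in replicate 2, beside 40.6%. Intergenic peaks numbered 201 (39.9%) beside 34.1% of all in replicate 1 and 502 (42%) beside 36.5% in replicate 2. Annotated repeats held 113 (22.4%) beside 19.2% and 289 (24.2%) beside 21.7%. A transcript start of a gene that is no microRNA lay within reach (from 1000 bp upstream to 100 bp downstream) of 40 microRNA peaks (7.94%) in replicate 1, beside 29.5% of all peaks, and of 92 (7.69%) in replicate 2, beside 25.1%. Once peaks at such starts were set aside, introns held 51.1% of microRNA peaks and 49.7% of all remaining peaks in replicate 1, and 51.5% and 49.4% in replicate 2. Intergenic sequence held 41.4% beside 45.8% in replicate 1 and 42.6% (39.7 to 45.5) beside 46.3% in replicate 2. The promoter class held 1.29% beside 0.307% and 1.63% beside 0.352%, and the class of transcript ends, which for a hairpin lies next to its start, 4.09% beside 1.5% and 2.36% beside 1.44%. Annotated repeats held 22.6% beside 26.1% and 24.6% beside 27.7%, the reverse of the order over whole lists. Within 100 kb of the assigned start lay 76.9% beside 80% in replicate 1 and 74.2% (71.5 to 76.7) beside 78.8% in replicate 2.

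For most of the peaks the named hairpin lay in a host gene. The host was a same-strand protein-coding or long non-coding gene around the hairpin, for 326 (64.7%) replicate 1 peaks and 743 (62.1%) replicate 2 peaks. Of the 1850 GENCODE hairpins, 1331 (71.9%) have such a host. The peak shares are lower, but they count a gene with many peaks more than once. Any protein-coding or long non-coding gene held 73.4% of microRNA peaks beside 68.2% of all peaks in replicate 1, and 72.3% beside 67.4% in replicate 2. The peak lay inside that same host for 238 (47.2%) and 545 (45.6%). A start of the host transcript was hit by 16 peaks (3.17%, 1.96 to 5.09) in replicate 1 and 39 (3.26%) in replicate 2. The hairpin itself was covered, at least in part, by 8 peaks (1.59%) in replicate 1 and 20 (1.67%) in replicate 2. A peak in the intron of a host can belong to the host, the hairpin or another gene, and these cannot be told apart in peak lists.

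TGTTTAC was present in 168 of 504 microRNA peaks (33.3%, 29.4 to 37.6) in replicate 1, beside 30.5% of all peaks. In replicate 2 it was present in 362 of 1196 (30.3%, 27.7 to 32.9), beside 28.2%. In equally wide control windows, centred 2000 bp on either side of the microRNA peaks, the share was 3.77% in replicate 1 and 3.43% in replicate 2. The heptamer was therefore about as frequent in these peaks as in the whole lists and rare in the sequence next to them. A looser forkhead core, read as A or G, C or T, AAA, C or T, A and holding every TGTTTAC match as its reverse strand, was found in 327 (64.9%) microRNA peaks beside 57.9% of all in replicate 1. In replicate 2 it was found in 63.7% beside 56.9%. Away from gene starts the order turned, with TGTTTAC in 34.7% of microRNA peaks and 36.2% of all such peaks in replicate 1 and in 31.6% and 32.9% in replicate 2. The looser core was found in 66.4% and 67.8% in replicate 1 and in 65.2% and 65.7% in replicate 2. These differences are within the counting intervals of the microRNA peaks.

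The site of AP-1, a factor of JUN and FOS proteins, reads TGACTCA or TGAGTCA and holds no match to the forkhead core. It was found in 102 microRNA peaks (20.2%, 17 to 24) in replicate 1, beside 16.4% of all peaks, and in 226 (18.9%) in replicate 2, beside 16.6%. Away from gene starts the shares were 20.9% of microRNA peaks and 20.9% of all peaks in replicate 1, and 19.3% and 20.2% in replicate 2. Matches to either motif are descriptions of sequence and were not tested as sites of binding.

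**Figure D2:**
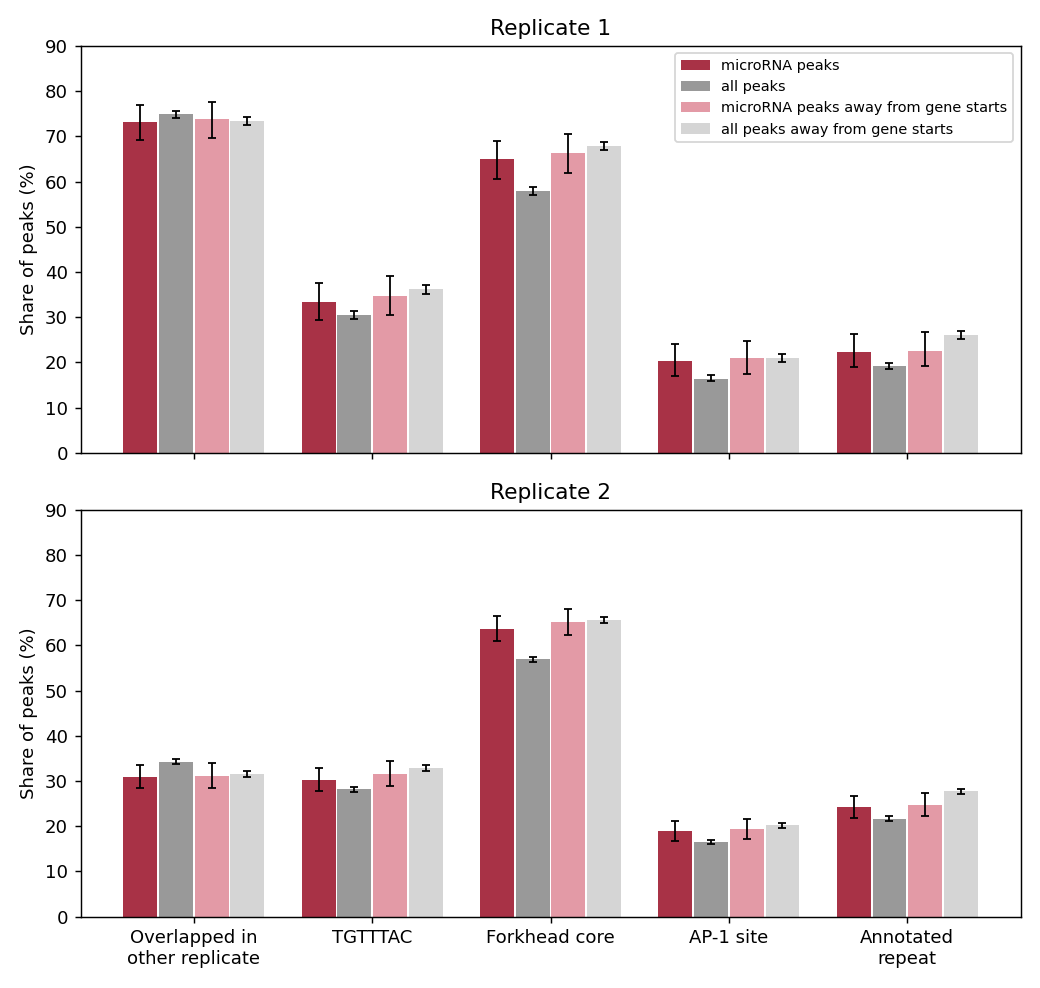
Share of peaks (%) overlapped in the other replicate, holding each motif within 100 bp of the centre, or in an annotated repeat, for microRNA peaks and all peaks, with and without the peaks at gene starts. Bars start at 0 and error bars are 95% Wilson intervals for counting error, and the TGTTTAC share of 33.3% in replicate 1 microRNA peaks stands beside 30.5% of all.

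Within the microRNA peaks the heptamer went with overlap and height, as it did in the whole lists. In replicate 1 it was present in 38.5% (33.7 to 43.5) of overlapped and 19.3% (13.5 to 26.7) of other microRNA peaks, beside 34.3% and 19.4% in all peaks. In replicate 2 the shares were 39.2% (34.4 to 44.3) and 26.3% (23.4 to 29.4), beside 34.9% and 24.6% in all peaks. The median percentile was 56.1 with and 42.6 without the heptamer in replicate 1, and 48.5 and 43.5 in replicate 2. Over all peaks it was 59.7 and 45.8 in replicate 1, and 54.4 and 48.5 in replicate 2. Among the 369 pairs, 140 (37.9%) held it in both peaks, beside 33.4% of all pairs. Of the 50 highest-ranked pairs 23 did, and of the 50 lowest-ranked 17. No matching counts by rank are given for all pairs, so these counts describe the microRNA pairs alone. The promoter peaks held it in 1 of 20 cases in replicate 1 (5%, 0.888 to 23.6) and in 4 of 36 (11.1%, 4.41 to 25.3) in replicate 2, beside 14.4% and 10.9% of all promoter peaks. The intergenic peaks held it in 81 of 201 cases (40.3%, 33.8 to 47.2) and 163 of 502 (32.5%, 28.5 to 36.7), beside 36.7% and 33% of all intergenic peaks. The intronic peaks held it in 31.5% and 30.4% of cases, beside 35.2% and 32.4% of all intronic peaks. Matches lay at a median of 23 bp from the peak centre over 179 matches in replicate 1 and 20 bp over 384 in replicate 2, beside 22 and 19 bp over all peaks.

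The highest-ranked pairs lay in introns and intergenic sequence as well as at gene starts. MIR5006 had a pair with scores of 34.9 (rank 61 of 12471) in replicate 1 and 54.9 (rank 115 of 27281) in replicate 2, in intron 37 of 44 of VWA8 and 80076 bp upstream of the hairpin. Its peak holds both sites printed above and an AP-1 match. An intergenic peak 28992 bp downstream of MIR6730 scored 28.3 (rank 109) and 49.8 (rank 147). Both pairs were high in both replicates and neither lay within 10 kb of its hairpin.

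Intergenic peaks at MIR2909 scored 21.7 (rank 227) and 40.5 (rank 247), 34132 bp downstream of the hairpin start. Those at MIR4668 scored 19.4 (rank 310) and 47.1 (rank 173), 98074 bp downstream. Another 3 of the 10 pairs lay on chromosome 8, and their sequences are not shown. MIR1204 was named by a peak at a start of PVT1, a long non-coding RNA gene that hosts several microRNAs, with 20.9 (rank 242) and 35.8 (rank 348). MIR2053 was named by a peak in an intron of CSMD3, 182260 bp upstream of the hairpin, with 18.1 (rank 363) and 45.4 (rank 197). MIR1208 had a peak 3109 bp downstream with 18.3 (rank 354) and 41.0 (rank 236). All 3 carried TGTTTAC in both replicates.

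Another 2 of the 10 lay within 1 kb of their hairpins. MIR4756 scored 19.4 (rank 310) in replicate 1, 733 bp downstream of the hairpin start, and 43.4 (rank 214) in replicate 2. MIR1538 scored 17.5 (rank 394) and 37.3 (rank 315), with centres 17 and 2 bp from the hairpin start. That peak covered the hairpin and also lay on the promoter of NFAT5, the transcription factor of the osmotic stress response, and held neither TGTTTAC nor the looser core. Peaks such as this one name a microRNA only because the hairpin starts closer to the centre than NFAT5 does.

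Some peaks near a hairpin lay at the start of another gene. Of the 21 pairs within 1 kb of a hairpin start in both replicates, 10 lay at a transcript start of a gene that is no microRNA. Over all pairs within 1 kb of their assigned start the count was 2388 of 2584 (92.4%), where the assigned gene is usually that gene itself. MIR6732 was paired with the start of ZC3H12A, which encodes an RNA-degrading enzyme of immune control, with 15.1 (rank 583) and 30.8 (rank 509), 361 bp upstream of the hairpin. MIR3655 was paired with the start of IK, with 14.0 (rank 742) and 29.6 (rank 552), 12 bp upstream. MIR3188 was paired with the start of JUND, an AP-1 subunit, with 12.1 (rank 1091) and 21.4 (rank 1287), 197 bp upstream. MIR3175 was paired with the start of CHD2, a chromatin remodeller, with 9.62 (rank 2021) and 21.0 (rank 1354), 79 bp upstream. None of these 4 peaks held TGTTTAC within 100 bp of its centre in replicate 1.

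MIR6821 scored 10.6 (rank 1588) and 19.3 (rank 1704), 425 bp upstream of its hairpin. MIR6070 scored 9.24 (rank 2246) and 19.8 (rank 1605), 154 bp downstream, and was among the 3 of the 21 pairs with TGTTTAC, beside MIR4756 and MIR4521. MIR3654 was the only one of the 10 highest of the 21 with a lower percentile in replicate 2, with 9.43 (rank 2128) and 11.6 (rank 5778), 633 bp upstream. MIR550B1 scored 7.55 (rank 3663) and 15.2 (rank 3179), 550 bp upstream. The 21 pairs thus ran from MIR4756 at percentiles of 97.5 and 99.2 to MIR573 at 7.54 and 18.1.

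**Figure D3:**
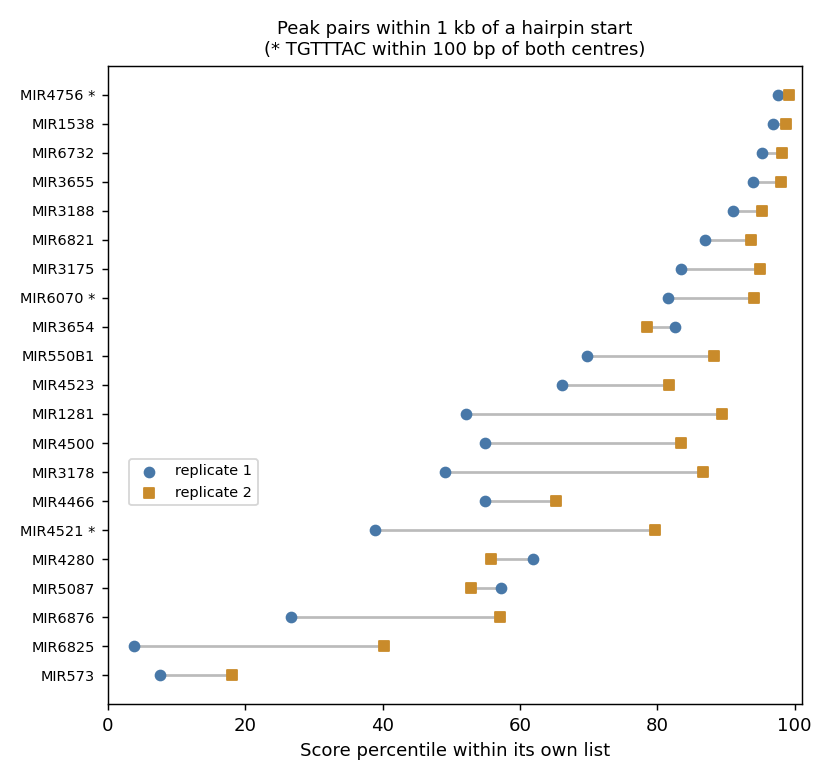
Score percentile within its own list for the 21 pairs within 1 kb of a hairpin start in both replicates, replicate 1 as circles and replicate 2 as squares, with an asterisk for TGTTTAC within 100 bp of both centres. MIR4756 stands at 97.5 and 99.2 at the top, and the longest line joins 38.9 and 79.7 at MIR4521.

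A list of 125 well-known microRNA genes, grouped by family or cluster, was set beside these peaks. Of them 16 (12.8%) had an assigned peak in both replicates, beside 16.1% of all GENCODE microRNA genes, and 25 (20%) had any peak within 10 kb in both, beside 15.5%. Of these 25, 9 belong to the miR-17-92 cluster and its paralogs and share 2 peaks, and without those families the count was 16 of 110 (14.5%). The 16 are described by what their microRNAs are known for.

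MIR21, the gene of an abundant cancer-associated microRNA, lies at the 3′ end of VMP1, an autophagy gene. Replicate 1 had 3 peaks assigned to it. The first, 54458 bp upstream and in intron 6 of VMP1, scored 12.1 (rank 1091), beside 24.4 (rank 924) for its partner in replicate 2. The next lay at a VMP1 transcript start 3474 bp upstream of the hairpin and scored 12.5 (rank 1014), beside 19.5 (rank 1670). Neither pair held TGTTTAC. The highest of the 6 replicate 2 peaks, 12080 bp downstream with 28.4 (rank 616) and the heptamer, had no partner in replicate 1.

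Among the microRNAs known as tumor suppressors, MIR148A had the highest-ranked pair, 87264 bp downstream of its hairpin start, with 17.4 (rank 402) and 31.1 (rank 501) and no heptamer. MIR29B1, of a family that targets collagens, had 2 pairs in introns of LINC-PINT. The pair 16908 bp upstream scored 10.6 (rank 1588) and 21.0 (rank 1354) and holds the site printed above, and the one 9844 bp upstream scored 8.49 and 17.4. MIR145, a smooth-muscle microRNA, had a pair 55282 bp downstream with 10.8 (rank 1520) and 18 (rank 2096). MIR34A, a target of p53, had its pair 11967 bp upstream in MIR34AHG, with 4.15 (rank 10645) and 7.14 (rank 13834). MIR26A1 had a pair in intron 1 of CTDSPL, its host, with 4.90 and 7.14 and the heptamer. The pairs at MIR34A and MIR26A1 stand in the lower 50% of both lists.

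MIRLET7I, of the let-7 family that restrains RAS, HMGA2 and LIN28 messages, was named by 4 peaks in replicate 1 and 7 in replicate 2. The best pair lay 157320 bp downstream in intron 4 of PPM1H, with 11.7 (rank 1205) and 17.0 (rank 2469), and holds the site printed above. A replicate 2 peak assigned to LINC01465 lay nearer, 1180 bp upstream of the hairpin start, with 7.29 (rank 13458). Of the 12 let-7 genes in the list MIRLET7I was the only one with an assigned peak in both replicates (8.33%, beside 16.1% of all GENCODE microRNA genes). Nothing about the family was read from this count. MIR4500, outside the list, carries the same seed and was among the 21 pairs near a hairpin, with 6.23 (rank 5476) and 13.1 (rank 4466), 283 bp upstream. The mature strands are shown because the shared seed (bases 2 to 8, in capitals, RefSeq on GRCh38.p14) links both loci.
let-7i-5p: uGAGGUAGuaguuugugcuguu
miR-4500: uGAGGUAGuaguuucuu

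MIR30A is shown because its mature strand and the forkhead heptamer share their letters. The seed of miR-30a-5p is GUAAACA, and TGTTTAC is its reverse complement. Of 1850 GENCODE hairpins, 15 (0.811%) hold the heptamer on either strand, and all 6 miR-30 genes are among them. A replicate 2 peak centred 4 bp upstream of the MIR30A hairpin start covered the hairpin and that match, scoring 8.33 (rank 10878), and no replicate 1 peak did. MIR4495 was the other hairpin of the 15 that a replicate 2 peak covered. The mature strand has its seed in capitals, and the hg38 stretch, on the strand of the hairpin, has the match in capitals.
miR-30a-5p: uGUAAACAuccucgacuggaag
MIR30A hairpin, chr6:71403589-71403635, minus strand: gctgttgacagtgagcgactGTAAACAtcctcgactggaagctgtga
The pair that did overlap at MIR30A lay 6649 bp upstream in an exon of LINC00472 and scored 5.47 (rank 6955) and 10.7 (rank 6836).

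The remaining listed genes had pairs below the highest 10% of both lists. MIR181B2 had a pair in intron 2 of NR6A1 with 7.73 (rank 3477) and 12.8 (rank 4690), and MIR365B one with 8.30 (rank 2960) and 12.3 (rank 5048), both with the heptamer. MIR365A, which makes the same mature 3p strand as MIR365B, had a pair in MIR193BHG with 3.96 (rank 11262) and 5.06 (rank 20908) and 2 heptamer matches in each replicate. A replicate 2 peak assigned to MIR5579 lay 15327 bp upstream of the MIR708 hairpin start, with 4.46 (rank 23158). MIR708, hosted by TENM4, had a pair 280854 bp downstream with 5.66 (rank 6554) and 8.48 (rank 10552). Its peak holds 3 matches within a repeated stretch, of which the first and the next are shown because they follow each other closely in like surroundings. The capitals mark 1 match in each line, and the windows overlap, so the neighbouring match appears in lower case.
MIR708 first site, chr11:79121162-79121208, plus strand: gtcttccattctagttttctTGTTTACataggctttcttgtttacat
MIR708 next site, chr11:79121180-79121226, plus strand: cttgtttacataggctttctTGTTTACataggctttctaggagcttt

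MIR125B1 had a pair in intron 1 of MIR100HG, 14529 bp downstream, with 5.47 (rank 6955) and 10.1 (rank 7625). MIR135A2 and MIR135B each had a pair with 4.53 (rank 9428) and 8.92 (rank 9640), in introns of RMST and of a non-coding transcript. MIR130A had an intergenic pair 20525 bp upstream with 4.90 (rank 8397) and 7.73 (rank 12252). Peaks at the YPEL4 promoter lay nearer in both replicates, 8733 and 8751 bp downstream of the MIR130A hairpin start. They scored 5.28 (rank 7370) and 9.96 (rank 7837) and were assigned to YPEL4. Of the 4 pairs assigned to these microRNA genes none held the heptamer in replicate 1 within 100 bp of the centre.

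**Figure D4:**
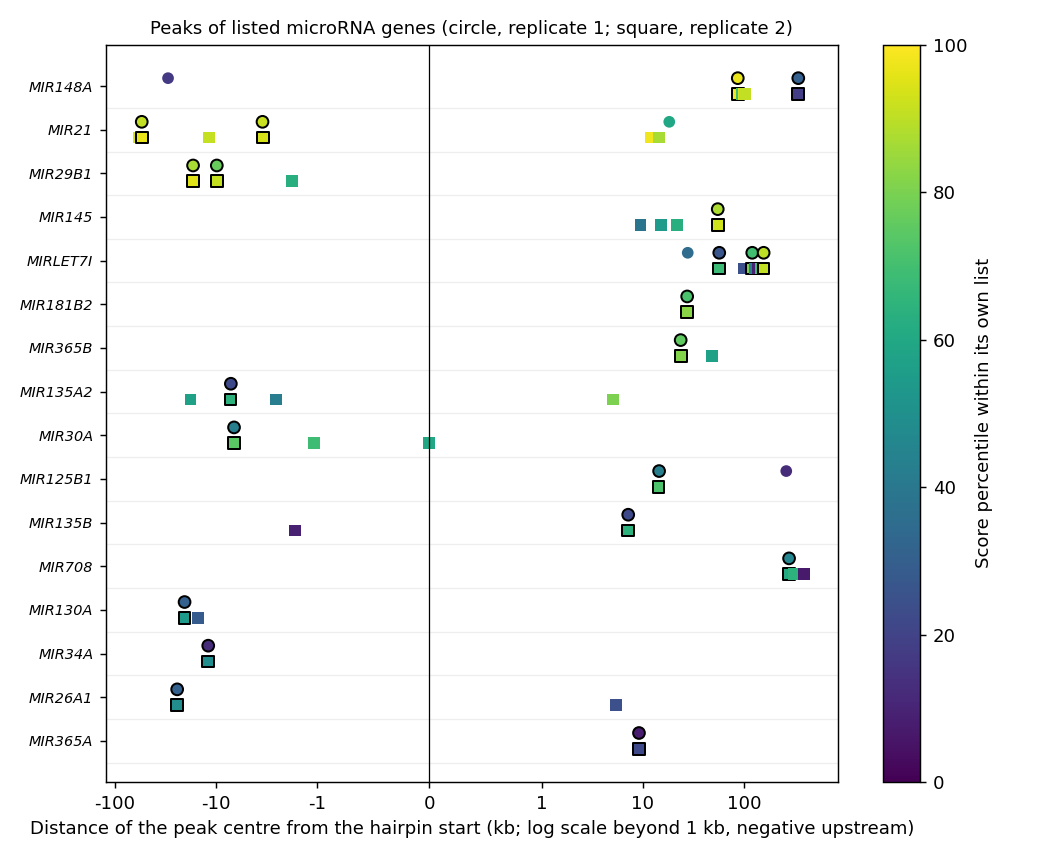
Distance of each peak centre from the hairpin start (kb, log scale beyond 1 kb, negative upstream) for the 16 listed genes with a peak in both replicates, circles for replicate 1 and squares for replicate 2, coloured by score percentile. Black outlines mark peaks that overlap between replicates, and a single square, at MIR30A, sits on the hairpin start.

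Some well-known clusters stood near peaks that carried another gene's name, and others had no peak nearby. The miR-17-92 cluster and its paralogs, 15 listed genes of cell growth, had no assigned peak, yet 9 of the 15 had a peak within 10 kb in both replicates. For MIR17 it was the promoter peak of its host, MIR17HG, 2964 bp upstream, with scores of 22.4 (rank 200) and 37.2 (rank 319). For MIR106B it was the promoter peak of MCM7, which hosts it with MIR93 and MIR25, 6491 bp upstream, with 40.7 (rank 30) and 91.5 (rank 17) and the heptamer in both. MIR17 and MIR106B therefore stood near higher peaks than all of the 16 genes above. The clusters of miR-183 with miR-96 and miR-182, and of miR-23 with miR-27 and miR-24, had no peak within 10 kb in either replicate. The miR-200 family had no peak within 10 kb in replicate 1 and a peak near 3 of its 5 genes in replicate 2. Over all GENCODE microRNA genes the shares were 17.7% and 29.1%. Of these miR-200 genes, MIR141 and MIR200C were near the same replicate 2 peak.

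Some genes were named by many peaks spread over long distances. MIR8068 was named by 9 peaks in each replicate, 6 of them overlapping, spread from 541250 bp upstream to 130585 bp downstream in replicate 1. MIR4693 was named by 5 and 10 peaks and MIR5702 by 5 and 9, with 4 overlapping in each case. MIR1208 and MIR2054 followed with 6 and 7 and with 2 and 11 peaks, and MIR4268, MIR4431 and MIR4668 had as many in all.

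Of the microRNA genes named in both replicates, 275 had mature sequences in RefSeq and lay outside chromosome 8, with 372 mature strands and 355 different seeds. Of the seeds 17 were shared, each by 2 genes (4.79%), beside 381 of 1915 seeds (19.9%) over the 1736 RefSeq microRNA genes outside chromosome 8, and a smaller set of genes has fewer chances to share. Among the pairs were let-7i with miR-4500, miR-26a with miR-4465 and miR-181b with miR-4262. The MIR548 family, a large primate family derived from a transposable element, named 20 peaks of 12 genes in replicate 1 (3.97% of microRNA peaks) and 57 of 26 genes in replicate 2 (4.77%). It makes up 72 of the 1850 hairpins (3.89%), a share near those of the peaks.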

How the data were processed

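The deposited lists hold 1 FOXK2 ChIP library each. Per the paper, the authors aligned single-end reads (Bowtie2 2.2.6, hg38) and used HOMER 4.10 to find peaks. They also compared both replicates and used DESeq2 to obtain normalized counts and enrichment statistics per peak, which were not used here. The deposited lists, 1 for each replicate, also name the nearest TSS. The authors' values are a peak score, a focus ratio (a fraction of tags on the expected side of the centre) and a distance to the TSS (bp), all used as deposited. Scores were whole multiples of a step. If HOMER scaled to 10000000 tags, its default, these steps put 16 tags (replicate 1) and 21 tags (replicate 2) in the lowest peaks and imply about 53000000 and 67200000 tags in all. Peaks had a fixed length of 210 and 256 bp.

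Overlap required 1 bp. Motifs were searched in hg38 with pysam 0.24.0. Starts, hosts and hairpins came from GENCODE release 44, and mature strands from RefSeq (GRCh38.p14), which matched 463 and 1111 of the microRNA peaks by name. Wilson intervals (95%) cover counting error only. No test was run, since peaks of 1 library are not replicates and there was a single condition. Both steps were tested on simulated data and returned the planted shares (largest error 0 points).

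The members and gene lists were chosen with earlier results of these data known. Genes named were those of the 10 overlapping pairs with the highest mean percentile, listed genes with peaks in both replicates, up to 10 genes with a hairpin start within 1000 bp of a peak in both, and the 5 with most peaks. Others were named after their values were seen. The highest-ranked of the 10 pairs is not reported here. The AP-1 site, the peaks away from gene starts, the hairpin matches and the seed groups were looked at after seeing the data. Versions of pandas (2.3.3) and Python (3.11.15) were those installed.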

Additional observations from a re-analysis of the deposited data

How the results depend on the processing

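The values of the microRNA peaks were recomputed without the matching values of all peaks, so differences from all peaks were not followed here. Of 107 alternative values, 83 stayed within their limits and 24 moved. The limits were the interval of the main value for shares and medians, and a fixed ratio to it for counts. Some values could not move. Control windows 10000 bp away changed only the control share, and named chromosomes held all 504 replicate 1 peaks. Shortening the replicate 2 list left replicate 1 values other than the overlapped share unchanged. The tally is therefore no measure of how stable the values are. Peaks at or above the median score of their list included 249 and 553 named for microRNA genes in replicates 1 and 2. The overlapped share rose to 85.1% and 38.5%, the TGTTTAC share of replicate 1 to 39.4% and the promoter share of replicate 1 to 6.43%. In this part 171 genes had a peak in both. The median percentile of replicate 2, ranked anew among the kept peaks, was 51.3 and is not on the scale of the whole list. With the replicate 2 list limited to the length of the replicate 1 list, 502 of its peaks remained and the overlapped shares drew level at 56.9% and 57.4%. The median percentile, ranked anew within the shortened list, was 50.2. Overlap of at least 50% of the shorter peak gave 69.0% in replicate 1. Motif windows of 50 bp gave TGTTTAC shares of 27.4% and 25.8%, windows of 500 bp 39.7% and 37.7%, and the looser core 64.9% and 63.7%. Among peaks within 100 kb of the hairpin, 37.2% and 31.0% lay within 10 kb. The microRNA genes found in both lists numbered 103 with peaks within 10 kb and 14 with promoter peaks, and leaving out a replicate gave 338 to 610. The lists hold no reads, so library depth is known only as implied by the score steps, and a peak missing from replicate 1 may lie under its threshold. No paired analysis was run, since the inputs that share the replicate numbers were not analysed here.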

Other observations

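Peaks named for microRNA host genes, which the name rule leaves out, form a small set. They numbered 18 peaks of 13 genes in replicate 1 and 50 peaks of 27 genes in replicate 2. Of the 18, 15 were overlapped in replicate 2, 3 were annotated as promoter and 5 held TGTTTAC, beside 74.9%, 21.7% and 30.5% of all replicate 1 peaks. Of the 50, 15 were overlapped in replicate 1, 4 were annotated as promoter and 12 held the heptamer, beside 34.2%, 18% and 28.2% of all replicate 2 peaks. Their median score percentile was 56.1 in replicate 1 and 41.0 in replicate 2.

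On some chromosomes the share of microRNA peaks lay above or below that of all peaks, and the following are examples. Chromosome 7 held 18 (3.57%) of replicate 1 microRNA peaks and 5.3% of all, and 37 (3.09%) and 5.49% in replicate 2. Chromosome 2 held 64 (12.7%) of the microRNA peaks of replicate 1 and 9.65% of all its peaks, and 150 (12.5%) and 8.74% in replicate 2. Chromosome 11 held 54 (10.7%) and 6.15% in replicate 1, and 89 (7.44%) and 5.27% in replicate 2. MIR8068 alone named 9 of these chromosome 11 microRNA peaks in each replicate. Of the 1850 hairpins, 6.22% lie on chromosome 2 and 5.41% on chromosome 11. Chromosome X held 1 (0.198%) of the microRNA peaks and 0.714% of all peaks in replicate 1, and 16 (1.34%) and 1.4% in replicate 2, beside 6.32% of hairpins. These shares were not tested.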
